A study of Sus scrofa with 6 samples.

Results

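Mitochondrial ribosome and translation genes were compared between the left ventricular (LV) myocardium of Dox-injected and PBS-injected piglets. A gene was included when the array annotation gave its probe set a single symbol that begins with MRPL or MRPS and a number or ends in ARS2, or is TUFM, TSFM, GFM1, GFM2, MTIF2, MTIF3, TFB1M, TFB2M or POLRMT. This selected 87 probe sets, the groups of short array probes that report 1 transcript, for 68 genes, and each gene was read at its brightest probe set. They were 68 of the 6765 genes that the array measures under a single symbol, and 23999 probe sets were tested in all. By symbol, 36 genes encode proteins of the large ribosomal subunit, 22 encode proteins of the small subunit, 6 encode mitochondrial aminoacyl-tRNA synthetases, 3 encode translation factors and 1 encodes an rRNA methyltransferase. GFM2, MTIF2, MTIF3, TFB2M and POLRMT had no probe set under these names.

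Mitochondria translate the few proteins encoded by their own DNA, all of them hydrophobic core subunits of the respiratory chain and ATP synthase, on a ribosome of their own. The ribosomal RNAs of that ribosome come from mitochondrial DNA, while each of its proteins, the synthetases that load its tRNAs and the factors that drive initiation and elongation are encoded in the nucleus, made in the cytosol and imported. Cardiac muscle is rich in mitochondria and takes most of its ATP from the respiratory chain, and inherited defects of several of these proteins are known causes of infantile cardiomyopathy.

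The study induced heart failure with doxorubicin (Dox), an anthracycline anticancer drug that damages heart muscle, and hybridized total RNA of the LV free wall to Affymetrix porcine arrays, 1 piglet per array. All 6 animals were Large White piglets kept in the same kind of nursery system. According to the labels, 3 of them (Dox 1 to Dox 3) received 2.0 mg/kg Dox once, intravenously, at 8 days of age. The other 3 (PBS 1 to PBS 3) received phosphate-buffered saline. Tissue was taken 3 weeks later, at 28 days of age. The methods of the study give a dose range and days that differ somewhat from these. The model rests on 1 drug exposure in growing animals, and each RNA sample holds every cell type of the ventricular wall, so that fewer cells of a type and less RNA per cell cannot be told apart.

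Values are MAS5 signals, which are probe set brightnesses on a linear scale with no unit, set by the authors' scaling to a trimmed mean of 100.03 to 100.04 on every array. The blank level of an array was the highest signal of its synthetic control probe sets, which have no pig target, and was 2.5 to 6.3. Differences are mean log2 signals of the Dox arrays minus those of the PBS arrays, with the standard error (SE) of the limma fit, and n = 3 arrays per group throughout. The precision is limited by the number of arrays. The array median was 16.8 to 17.8 in PBS and 13.5 to 15.6 in Dox, so a log2 difference of -0.10 was the median over all probe sets. The 3′ to 5′ signal ratio of the elongation factor control, which tracks the integrity of RNA, was 11.6 on the Dox 1 array and 4.24 to 4.86 on the others. That of actin was highest on PBS 2, at 121 against 29.6 to 76.9 on the others, and that of GAPDH was 1.16 to 1.55. Dox 3 had the lowest array median and the lowest weight when limma weighted arrays by their spread, 0.328 against 0.631 to 2.14.

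The tissue carried the markers of heart muscle, and 9 of 12 cardiomyocyte genes were measured and bright on all arrays. Their summed signal was 36609 to 44011 in PBS and 43970 to 57186 in Dox, and their median log2 difference was 0.28, but -0.07 after quantile and -0.01 after cyclic loess normalization. All 6 measured fibroblast genes lay below 0 (median -1.01), with a summed signal of 2778 to 4606 in PBS and 915.8 to 2710 in Dox. The 3 neutrophil genes lay above 0, with a summed signal of 12.3 to 31.1 in PBS and 69.8 to 802.7 in Dox, although S100A12 was at the blank level on 4 arrays. Of 7 endothelial genes 5 lay below 0, with a median log2 difference of -0.56, or -0.31 without Dox 3 and -0.21 with 16 added to each signal before log2. The 5 macrophage and leukocyte genes went both ways, 3 above 0 and 2 below, with a median of 0.57, or 0.12 without Dox 3 and 0.18 with that addition, and PTPRC, the highest of them, was at the blank level on 5 arrays. The part of these cell type markers in the values below was not tested.

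No member passed the threshold of the study, which asks for a 2-fold or larger difference together with an adjusted p (here from limma) no higher than 0.05, and the smallest adjusted p among the 68 was 0.521. Over the whole array the same threshold was met by 0% of probe sets. The members spanned log2 differences of -1.03 to 0.65 between Dox and PBS, and 23 of them lay within 0.2 of no difference. The median log2 difference was -0.22, with 50 members (73.5%) below 0 and 18 above. Over the 6765 genes the median was -0.07, with 56% below 0. When each array was centred on the median of all probe sets, the median over the members was 0.01, with 33 below 0. That centring moved the median of all probe sets from -0.10 to 0.13.

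**Figure D1:**
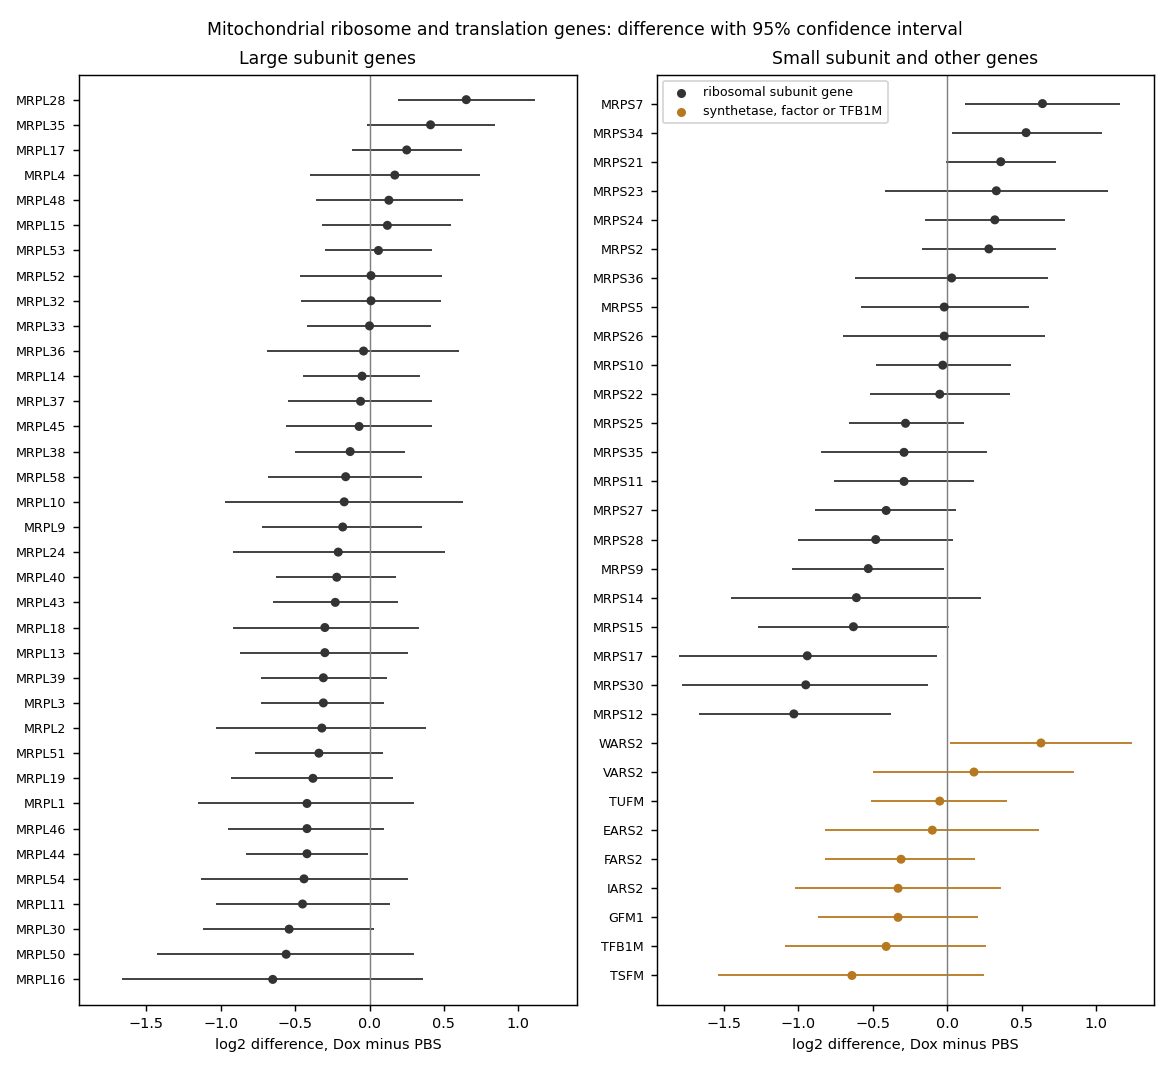
Log2 difference of mean signal, Dox minus PBS, for 67 genes (points) with the 95% confidence interval of the limma fit (lines), large subunit genes on the left and small subunit, synthetase and factor genes on the right. Differences ran from -1.03 for MRPS12 to 0.65 for MRPL28, and NARS2, which was at the blank level of the array, is left out.

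At an unadjusted limma p of at most 0.05, MRPS12, MRPS30, MRPS17, MRPL44 and MRPS9 were lower in Dox. These 5 genes were 7.35% of the members, against 6.61% of the 6765 genes and 5.92% of all probe sets. MRPL28, MRPS7, MRPS34 and WARS2 were higher in Dox at the same p, and these 4 were 5.88% of the members against 4.92% of genes and 3.62% of probe sets. Both counts were close to the background and moved with single arrays. The lower count was 1 without PBS 1, 3 without PBS 2 or PBS 3, 16 without Dox 1, 2 without Dox 2 and 1 without Dox 3. The higher count was 2 without PBS 1, PBS 3 or Dox 3, 1 without PBS 2 or Dox 2 and 6 without Dox 1. Counts over all 23999 probe sets moved with single arrays too. The lower one, 1421 with all arrays, was 599, 929 and 955 without PBS 1, PBS 2 and PBS 3. It was 2558, 1033 and 1261 without Dox 1, Dox 2 and Dox 3. The higher one, 869 with all arrays, was 483, 681 and 659, and then 1328, 605 and 595, in the same order.

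Every Dox array lay below every PBS array for 11 members, MRPS9, MRPS12, MRPS17, MRPS25, MRPS28, MRPL3, MRPL19, MRPL43, MRPL44, GFM1 and FARS2. This was 16.2% of the members, with 10.4% of genes and 10.1% of probe sets meeting the same condition. Every Dox array lay above every PBS array for 8 members, MRPS2, MRPS7, MRPS21, MRPS34, MRPL17, MRPL28, MRPL35 and WARS2, which was 11.8% against 9.06% of genes and 6.19% of probe sets. An exact two-sided permutation test of 3 against 3 arrays cannot give a p below 0.1, which is the value of each of these 19 genes.

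The 3 lowest log2 differences belonged to genes numbered among the small subunit. MRPS12, the counterpart of a bacterial protein at the decoding centre of the small subunit, had signals of 362.4, 205.8 and 219.7 in PBS and 151.7, 132 and 97 in Dox. All Dox arrays lay below all PBS arrays, and PBS 1 stood above the other controls. The log2 difference was -1.03 (SE 0.28), a signal 2.04-fold lower in Dox, with a limma adjusted p of 0.521. It was -0.84 without Dox 3 and -0.77 to -1.18 over the fits that left out 1 array. Its other probe sets, with fainter signals, gave log2 differences of -0.82 (SE 0.30) and -1.42 (SE 0.46), so MRPS12 was lower in Dox by each of its 3 probe sets.

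MRPS17, an rRNA-binding protein of the body of the small subunit, had signals of 807.8, 453.5 and 488.5 in PBS and 418.8, 372.3 and 164 in Dox. The groups did not overlap, although Dox 1 was only just below the lower controls and Dox 3 was far below all. Its log2 difference of -0.94 (SE 0.38) came to -0.51 without Dox 3. MRPS30 is numbered among the small subunit proteins but sits in the large subunit in structures of the mammalian mitochondrial ribosome. It had signals of 69.4, 44.7 and 53.1 in PBS and 45.4, 21.6 and 23.1 in Dox. Dox 1 lay within the PBS range and the other Dox arrays well below it, with a log2 difference of -0.95 (SE 0.36), or -0.81 without Dox 3.

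MRPS9, whose bacterial counterpart reaches towards the tRNA in the peptidyl site, had closely spaced PBS signals of 187.5, 194 and 188.3 against 153.1, 147.2 and 101.5 in Dox. Its log2 difference was -0.53 (SE 0.22), or -0.34 without Dox 3, and the dimmer of its probe sets gave -0.79 (SE 0.36). MRPS28, another small subunit protein, showed the same arrangement, with a tight control group above all Dox arrays. Its signals were 359.7, 368 and 377.5 in PBS and 322.2, 294.6 and 193.6 in Dox, a log2 difference of -0.48 (SE 0.23), or -0.26 without Dox 3. MRPS15, an early rRNA-binding protein of the small subunit, overlapped between groups, at 1014, 975.8 and 737.4 in PBS and 893.4, 510 and 432.2 in Dox. Dox 1 lay among the controls, and the log2 difference was -0.63 (SE 0.28), or -0.42 without Dox 3.

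Other small subunit genes stood higher in Dox. MRPS7, which binds rRNA in the head of the small subunit, had signals of 134.8, 138 and 178.1 in PBS and 191.4, 232.4 and 283.2 in Dox. Every Dox array lay above every control, with Dox 3 the highest, and the log2 difference was 0.64 (SE 0.23), or 0.50 without Dox 3. MRPS34, a protein without a bacterial counterpart, had signals of 155.1, 111.6 and 144.5 in PBS and 168.8, 214.4 and 210.1 in Dox. The groups did not overlap, although Dox 1 was near the highest control, and the log2 difference was 0.53 (SE 0.22), or 0.49 without Dox 3.

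MRPS21 and MRPS24, both with bacterial counterparts, were also on the higher side. MRPS21 had signals of 964.7, 1140 and 1067 in PBS and 1208.6, 1512 and 1364.7 in Dox, a log2 difference of 0.36 (SE 0.16) that was the same without Dox 3. MRPS24 had signals of 748.5, 712.9 and 555.6 in PBS and 680.7, 858.3 and 992.3 in Dox, a log2 difference of 0.32 (SE 0.20), or 0.20 without Dox 3. The groups were apart for MRPS21 and overlapped for MRPS24, where Dox 1 lay below the brightest controls. Over the 22 small subunit genes, 15 (68.2%, against 56% of all genes) lay below 0 and 7 above. Their median log2 difference was -0.16, but 0.07 with arrays centred on their medians and 0.04 without Dox 3.

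**Figure D2:**
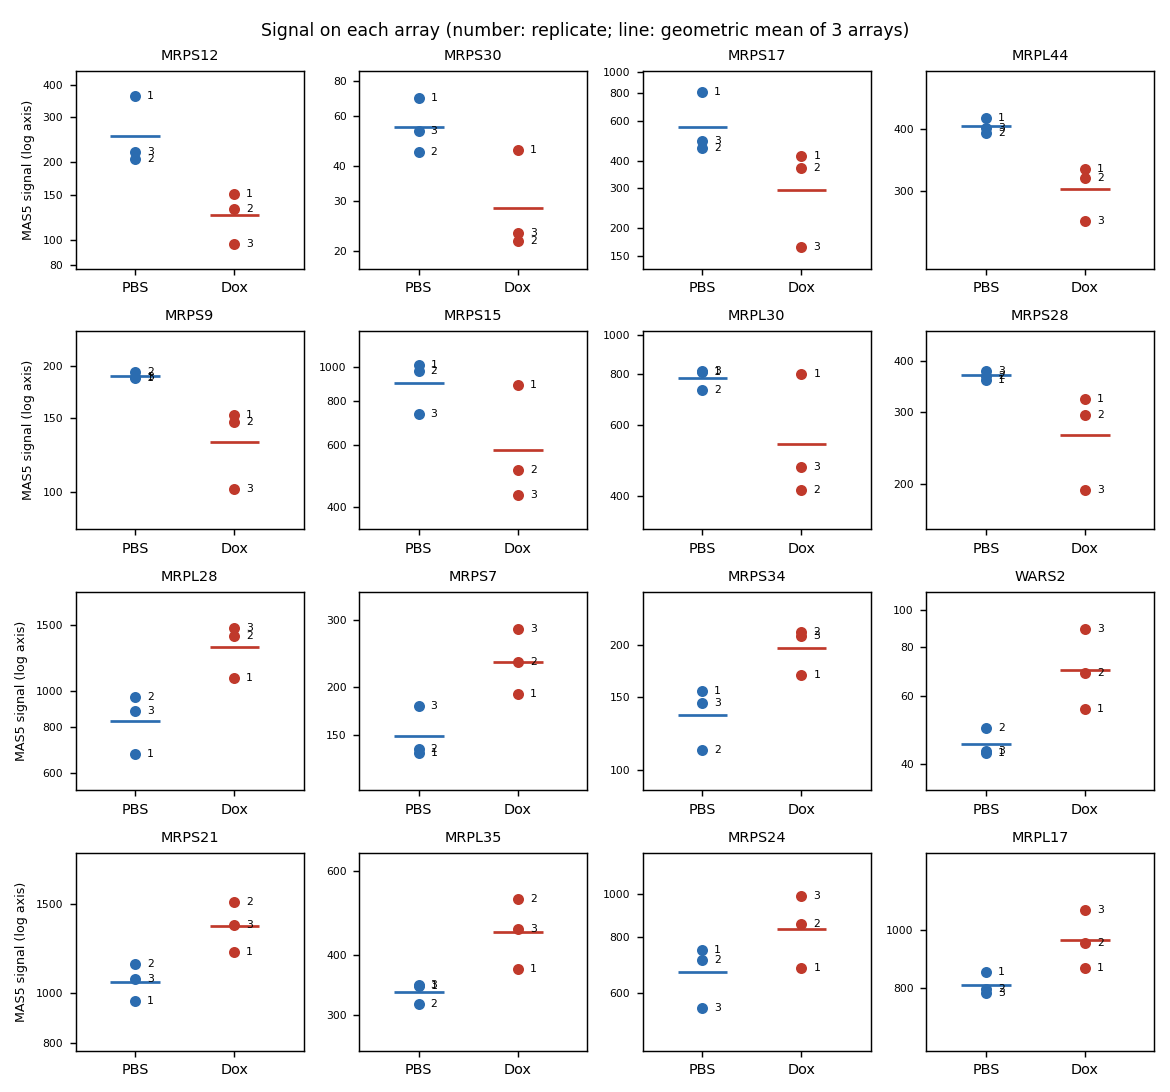
MAS5 signal (log axis, scale differing between panels) on each array for the 8 members with the smallest unadjusted p on the lower side (top rows) and the 8 on the higher side (bottom rows), with replicate numbers beside the points and the geometric mean of 3 arrays as a line. The groups overlap for MRPS30, MRPS15, MRPL30 and MRPS24, and Dox 3 is the lowest array for 6 of the 8 genes in the top rows.

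Among the 36 large subunit genes, 27 (75%, against 56% of all genes) lay below 0 and 9 above. Their median log2 difference was -0.20, but 0.04 with arrays centred on their medians, -0.03 without Dox 3 and -0.35 without Dox 1. MRPL28, the counterpart of a bacterial large subunit protein, had the highest difference of all 68 members. Its signals were 675.8, 964.1 and 881.8 in PBS and 1082.2, 1403.1 and 1476.3 in Dox. The groups were apart, and the log2 difference was 0.65 (SE 0.20), a signal 1.57-fold higher in Dox, with a limma adjusted p of 0.521. Without Dox 3 the log2 difference was 0.57.

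MRPL35 and MRPL17, also with bacterial counterparts, were higher on every Dox array. MRPL35 had signals of 345.5, 315.6 and 346.3 in PBS and 373.5, 524.4 and 454.1 in Dox, a log2 difference of 0.41 (SE 0.19), or 0.40 without Dox 3. MRPL17 had signals of 851.1, 794.6 and 782.4 in PBS and 863.9, 952.1 and 1082.8 in Dox, a log2 difference of 0.25 (SE 0.16), or 0.17 without Dox 3. For MRPL17 the distance between the lowest Dox array and the highest control was small.

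MRPL44, a large subunit protein with a fold like that of ribonuclease III and no bacterial ribosomal counterpart, had signals of 420.7, 392.9 and 402 in PBS and 331.4, 318.9 and 260.2 in Dox. All Dox arrays lay below the narrow PBS range, and the log2 difference was -0.42 (SE 0.18), or -0.32 without Dox 3. MRPL30, the counterpart of a bacterial large subunit protein, had signals of 808.8, 728.7 and 816.1 in PBS and 798.6, 413.2 and 470.3 in Dox. Dox 1 was like the controls and the other Dox arrays were well below them, with a log2 difference of -0.54 (SE 0.25), or -0.45 without Dox 3.

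The large subunit genes with the brightest probe sets, beside MRPL28, were MRPL52 and MRPL33. MRPL52 had signals of 925.8, 1223.4 and 1220.3 in PBS and 1339.9, 1202.4 and 876.9 in Dox, and its log2 difference was 0.01 (SE 0.21). MRPL33, the counterpart of a small rRNA-binding protein of bacteria, had signals of 990.9, 1255.7 and 1106.9 in PBS and 1250.8, 1177.5 and 929.9 in Dox, with a 95% confidence interval of the log2 difference of -0.42 to 0.41. The groups overlapped widely in both genes.

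Of the 9 translation factor, synthetase and methyltransferase genes above the blank level of the array, 7 had log2 differences below 0, and WARS2, above 0, met an unadjusted limma p of at most 0.05. WARS2, which charges the mitochondrial tRNA for tryptophan, had signals of 42.8, 49.5 and 43.1 in PBS and 55.6, 68.5 and 88.9 in Dox. Every Dox array was above every control, and the log2 difference was 0.63 (SE 0.27), or 0.45 without Dox 3, with a limma adjusted p of 0.521. VARS2, the valine enzyme, overlapped between groups, at 38.1, 62.6 and 63.1 in PBS and 61, 71.5 and 49.8 in Dox, with a log2 difference of 0.18 (SE 0.30).

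TUFM, the elongation factor that brings charged tRNAs to the ribosome, had signals of 979.3, 1330.1 and 825.5 in PBS and 1036, 970.5 and 955.6 in Dox. The Dox arrays lay inside the PBS range, with a log2 difference of -0.05 (SE 0.20). TSFM, which recharges TUFM with GTP, had signals of 368.8, 411.9 and 410 in PBS and 433, 294.7 and 128.4 in Dox. Dox 1 was above all controls and Dox 3 far below them, and the log2 difference of -0.64 (SE 0.39) came to -0.15 without Dox 3. GFM1, the factor that moves the ribosome along the mRNA, had signals of 99.3, 94.3 and 94.9 in PBS and 91.8, 78.9 and 61.2 in Dox. The groups did not overlap, with a log2 difference of -0.33 (SE 0.24), or -0.18 without Dox 3.

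TFB1M, which methylates the small subunit rRNA, had signals of 94.6, 100.4 and 76.2 in PBS and 77.7, 86 and 45.9 in Dox, a log2 difference of -0.41 (SE 0.30), or -0.14 without Dox 3. IARS2, the isoleucine enzyme, had signals of 433.9, 465.8 and 384.3 in PBS and 431.5, 444.5 and 204 in Dox. In both genes Dox 3 was the single array below all controls, and for IARS2 the log2 difference of -0.33 (SE 0.30) was 0.04 without it. FARS2, the phenylalanine enzyme, had signals of 179.6, 173.2 and 187 in PBS and 159.7, 168.2 and 112.7 in Dox, a log2 difference of -0.31 (SE 0.22), or -0.13 without Dox 3. EARS2, the glutamate enzyme, overlapped between groups, at 33.2, 46.8 and 27.3 in PBS and 38.6, 33 and 26.9 in Dox, with a log2 difference of -0.10 (SE 0.32). NARS2, the asparagine enzyme, had signals of 0.8, 1 and 0.2 in PBS and 0.2, 0.2 and 1.9 in Dox. These were within the blank level on every array, so no fold was read.

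The members differed more among the Dox animals than among the controls. The median SD of log2 signal within a group was 0.302 in Dox and 0.174 in PBS, beside 0.412 and 0.263 for all genes. The SD was larger in Dox for 54 of the 68 members, or 79.4%, against 66.6% of all genes. The low values lay mostly on Dox 3. Relative to the PBS mean of each gene, the median over the members was 0.03 on Dox 1, -0.09 on Dox 2 and -0.49 on Dox 3 on the log2 scale, beside 0.00, -0.03 and -0.11 for all genes. The single PBS arrays had medians of -0.03, 0.09 and -0.02.

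Dox 3 gave the lowest of the 6 signals for 40 members, or 58.8%, against 34.3% of all genes. It lay below all PBS arrays for 48 members, or 70.6% against 42% of all genes. Dox 2 did so for 27 members (39.7% against 33.1% of genes) and Dox 1 for 16 (23.5% against 25.9%), both nearer the share over all genes. Without Dox 3 the median log2 difference over the members was -0.03 with 39 below 0, and without Dox 1 it was -0.35. The large and small subunit genes were alike in this respect, with medians of -0.50 and -0.48 on Dox 3.

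In some members Dox 3 lay far below every other array, and 4 of them are named here after their values were seen. MRPS14 had signals of 248.1 to 325.6 on the other 5 arrays and 108.8 on Dox 3. MRPL1 had 455.7 to 499.5 on the other arrays and 206.1 on Dox 3, and MRPL10 had 343 to 503.4 and 190.4. MRPL16 ranged more widely on the others, from 245.7 to 424.8, and had 107.4 on Dox 3. Members on the higher side were divided. Dox 3 was the highest array for MRPL28, MRPS7, WARS2, MRPS24 and MRPL17. It was the lowest Dox array for MRPL52, MRPL32, MRPS36, MRPL48, MRPL4, VARS2 and MRPS2, listed after their values were seen. The Dox 3 array also had the lowest summed fibroblast signal, 915.8, and the highest summed cardiomyocyte signal, 57186, and the part of either in its low values was not tested.

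Members were also grouped by whether their proteins have a counterpart in the bacterial ribosome or were added in the mitochondrial lineage. Of 34 genes with a counterpart, 24 lay below 0, with a median log2 difference of -0.20. Of 22 genes without one, 17 lay below 0, with a median of -0.23. Without Dox 3 these medians were -0.01 and -0.14, and without Dox 1 they were -0.41 and -0.32. All Dox arrays lay above all PBS arrays for 6 genes with a counterpart (17.6%) and 1 without (4.55%), against 9.06% of all genes. All Dox arrays lay below all PBS arrays for 6 genes with a counterpart (17.6%) and 3 without (13.6%), against 10.4% of all genes. The difference between the groups was not tested. These groups were assigned after the values were seen. MRPL58, a peptidyl-tRNA hydrolase built into the large subunit, and MRPS36, now placed in a dehydrogenase complex of the citric acid cycle and no longer in the ribosome, were left out of them. Their log2 differences were -0.16 (SE 0.23) and 0.03 (SE 0.29).

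For 14 members the array has several probe sets, 33 in all. Probe sets at the blank level on 4 or more arrays were set aside. The others agreed in sign for 8 genes and gave both signs for 6, MRPL15, MRPL32, MRPL33, MRPL35, MRPL52 and MRPS2. The probe sets of opposite sign were faint for MRPL15 (3 to 8.3), MRPL35 (9.2 to 16.8), MRPL52 (9.9 to 19.8 and 2.5 to 8.9) and MRPS2. That of MRPS2 had signals of 0.9 to 5.8 and was at the blank level on 3 arrays. In MRPL32 neither probe set was faint. The brighter one had signals of 106.3 to 127.4 and a log2 difference of 0.01 (SE 0.20). The other had 70.7 to 135.5, with every Dox array below every control and a log2 difference of -0.45 (SE 0.24). No gene had probe sets more than 0.5 log2 units from 0 on both sides. The widest gap was in MRPL33, whose brighter probe set showed no separation of the groups, as given above. Its dimmer probe set had signals of 104.2, 200.7 and 178.6 in PBS and 300.1, 342.4 and 458.8 in Dox. Every Dox array lay above every control there, with a log2 difference of 1.22 (SE 0.29). Which transcript form each probe set reads was not tested.

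**Figure D3:**
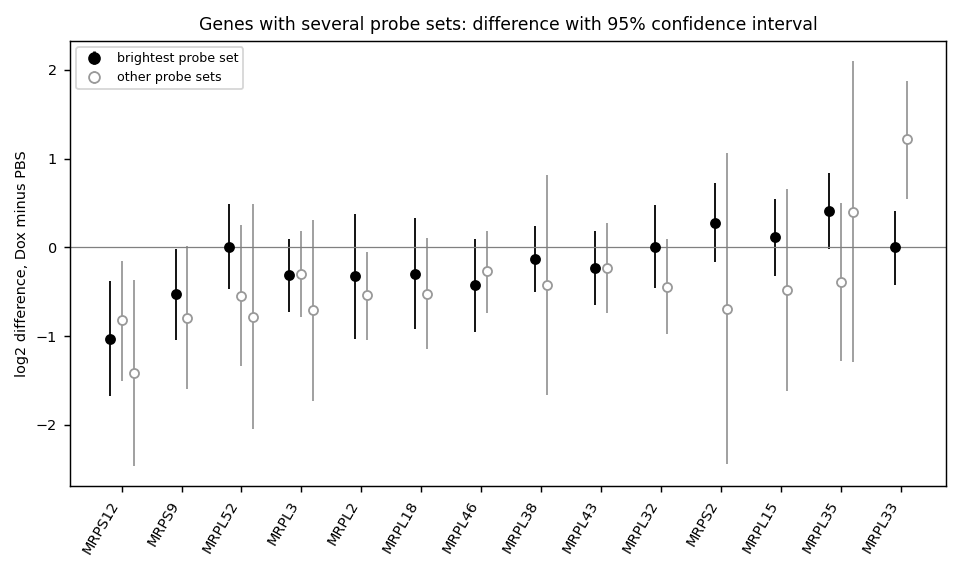
Log2 difference, Dox minus PBS, with the 95% confidence interval of the limma fit, for each probe set above the blank level of the 14 members that have several (filled points, the brightest probe set, which stands for the gene elsewhere; open points, the others). The 3 probe sets of MRPS12 all lie below 0, at -1.03, -0.82 and -1.42, whereas those of MRPL33 lie at 0 and 1.22.

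Other genes of the mitochondrial gene expression pathway were counted from lists of known members. No probe set carried the name of a transcript encoded by mitochondrial DNA, so the products and the RNA partners of the mitochondrial ribosome were not measured under those names. Of 11 genes of mitochondrial DNA maintenance and transcription, 0 met an unadjusted limma p of at most 0.05, and the median log2 difference was -0.12, but 0.22 without Dox 3, 0.11 with arrays centred on their medians and 0.00 after cyclic loess normalization. TFAM, which packages mitochondrial DNA and starts its transcription, had signals of 247.3, 368.6 and 345.9 in PBS and 323.4, 295.3 and 257.5 in Dox, a log2 difference of -0.12 (SE 0.22). SSBP1, which coats single-stranded mitochondrial DNA, had a log2 difference of 0.09 (SE 0.21), with overlapping groups. TEFM, the transcription elongation factor, was below all controls on every Dox array, at 143.5, 164.6 and 142.6 against 115.5, 127.2 and 64.8, a log2 difference of -0.61 (SE 0.29), or -0.31 without Dox 3. SUCLG1, a succinyl-CoA ligase subunit, was above all controls on every Dox array, with a log2 difference of 0.37 (SE 0.18), or 0.23 without Dox 3.

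Of 16 genes of mitochondrial RNA processing and stability, 1 was lower (TRMT10C) and 1 higher (HSD17B10) at an unadjusted limma p of at most 0.05, or 6.25% each way, near the shares of 6.61% and 4.92% over all genes. As background, both proteins belong to the enzyme that cuts the 5′ ends of mitochondrial tRNAs. Its other subunit, KIAA0391, named for this reason, had a log2 difference of -0.49 (SE 0.51). Its signals were faint, at 3.7 to 10.1, and at the blank level on 2 arrays. TRMT10C had signals of 35.3, 34.8 and 27.1 in PBS and 18.7, 21 and 17.9 in Dox, a log2 difference of -0.75 (SE 0.29). HSD17B10 had signals of 908.2, 1474.7 and 1366.3 in PBS and 1469.4, 1978.5 and 2286 in Dox, a log2 difference of 0.62 (SE 0.24). The groups were apart for TRMT10C and overlapped by a narrow margin for HSD17B10.

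Of 7 genes for tRNA modification and loading, 6 lay below 0 (85.7%, against 56% of all genes). Their median log2 difference was -0.42, or -0.19 both without Dox 3 and with arrays centred on their medians. At an unadjusted limma p of at most 0.05, 1 gene was lower (14.3%, against 6.61% of all genes). This was NSUN3, which modifies the mitochondrial tRNA for methionine. Its signals were 113, 47.8 and 51.5 in PBS and 38.6, 18.6 and 15.6 in Dox, a log2 difference of -1.54 (SE 0.46) with an adjusted p of 0.521. QRSL1 and CDK5RAP1 were also below all controls on every Dox array, at log2 differences of -0.41 (SE 0.20) and -0.42 (SE 0.24), or -0.24 and -0.19 without Dox 3. With NSUN3, 3 of the 7 genes (42.9%) met that condition, against 10.4% of all genes.

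Of 17 genes for ribosome assembly, release and membrane insertion, 0 met an unadjusted limma p of at most 0.05. Their median log2 difference was -0.07, but 0.05 without Dox 3, -0.25 without Dox 1, -0.27 without Dox 2 and 0.16 with arrays centred on their medians. This list held DAP3 and CHCHD1, and the RNA processing list PTCD3. These are small subunit proteins whose symbols the rule did not take, named for this reason. Their log2 differences were -0.24 (SE 0.22), -0.52 (SE 0.33) and 0.18 (SE 0.20). Of 9 genes of the mitochondrial unfolded protein response, 1 was lower at that p, the chaperonin HSPD1, at 1565.2, 1484 and 1372.1 in PBS and 1068.4, 924.4 and 756.1 in Dox, a log2 difference of -0.70 (SE 0.18). Without Dox 3 that difference was -0.57. Its partner HSPE1 had a log2 difference of -0.34 (SE 0.16), and the chaperone HSPA9 one of 0.30 (SE 0.14). ATF4, a stress transcription factor, had one of 0.94 (SE 0.44) with overlapping groups, or 0.49 without Dox 3. The transcription factors ATF5 and DDIT3 were named after their values were seen. ATF5 had signals of 1.7, 2.9 and 1.4 in PBS and 1.8, 10.5 and 2.7 in Dox. It was at the blank level on 5 arrays, so no fold was read. DDIT3 had signals of 118.3, 108.2 and 100.4 in PBS and 118.9, 96.7 and 343.1 in Dox. Its log2 difference was 0.54 (SE 0.43), or -0.02 without Dox 3. Of 5 regulators of mitochondrial biogenesis, 1 was higher at that p (20%, against 4.92% of all genes). This was MYC, at 62.7, 143.4 and 81.2 in PBS and 141.6, 336.2 and 1044.5 in Dox, a log2 difference of 2.03 (SE 0.65). Its groups overlapped at Dox 1, and the difference was 1.28 without Dox 3 and 2.72 without Dox 1. PPARGC1A, the coactivator that drives mitochondrial biogenesis, had signals of 872.4, 728.6 and 690.8 in PBS and 662.2, 684.5 and 1092.8 in Dox, a log2 difference of 0.06 (SE 0.23).

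The proteins of the cytosolic ribosome, which makes the mitochondrial ribosomal proteins, lay on the higher side on the same arrays. Of 63 genes, 29 were higher (46%, against 4.92% of all genes) and 0 lower at an unadjusted limma p of at most 0.05. Every Dox array was above all controls for 54 of them (85.7%, against 9.06% of all genes). These counts were not recomputed after normalization. The median log2 difference of these genes was 0.37, or 0.60 with arrays centred on their medians. It was 0.06 after quantile and 0.12 after cyclic loess normalization. Their median was 0.29 on Dox 1, 0.21 on Dox 2 and 0.57 on Dox 3. Of 59 nuclear subunits of the respiratory chain and ATP synthase, 0 were lower and 2 higher (3.39%) at that p. The shares over all genes were 6.61% and 4.92%. The subunits had a median log2 difference of 0.07 that turned to -0.13 and -0.08 after those normalizations. The difference between these lists and the mitochondrial ribosome was not tested.

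**Figure D4:**
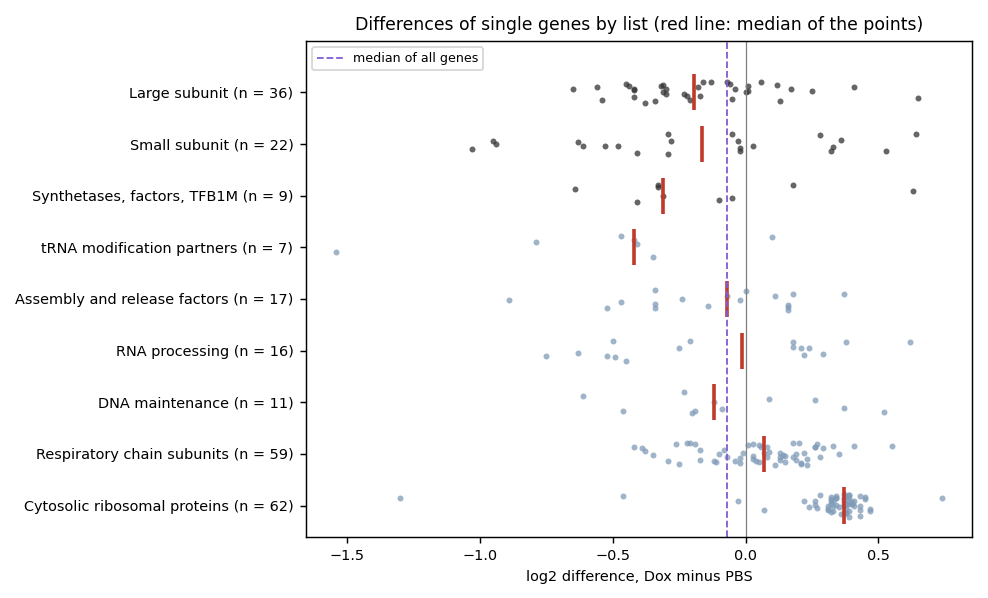
Log2 difference, Dox minus PBS, of single genes (points) in 3 groups of members (dark) and 6 other lists (light), with the median of each (red line) and of all genes (dashed line), without genes at the blank level. Members spread from -1.03 to 0.65, and the cytosolic ribosomal protein genes gather around 0.37 (0.06 after quantile normalization).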

How the data were processed

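Groups and replicate numbers follow the sample titles. The authors deposited intensities on a linear scale, MAS5 signals computed with GCOS 1.4 (submitters' processing notes). Scanner files were not used here. Before log2, signals of 0 (in 311 probe sets) were set to 0.1. In R 4.3.3, limma 3.58.1 (lmFit, eBayes with an intensity trend) was fitted to 23999 probe sets on all 6 arrays without further normalization or covariates, after 124 array controls were left out, with Benjamini-Hochberg adjustment over all probe sets. Calls needed an adjusted p of at most 0.05 and a fold of at least 2. The code was tested on simulated data. With 1 array per animal, spread between animals and technical spread cannot be told apart.

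Genes were named from the platform annotation, in which 10069 probe sets have 1 symbol, 198 several and 13732 none; MRPL22 and MRPL55 occur only on probe sets with several and were not used. Of the members, 67 matched RefSeq (Sscrofa11.1) by gene ID with the same symbol and 1, MRPS25, did not match. RefSeq holds 102 symbols that meet the rule, 34 of them without a probe set here. The blank level of an array was the highest signal of its synthetic Tag probe sets, and no fold was read for a gene within it on 4 or more arrays.

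The members, lists and rules were chosen with earlier results of these data known. The text names the 8 members with the smallest unadjusted p in each direction, the 3 brightest of each subunit, all synthetases and factors, and up to 4 genes of each other list with the smallest unadjusted p, plus TFAM, SSBP1 and PPARGC1A; other names are marked. The replicate numbers were checked for pairing, and same-numbered arrays had correlations of -0.047, 0.117 and -0.146, so the numbers were not used as pairs. The counts of members at each threshold, the medians of the members and of each subunit and the named members were recomputed after quantile or cyclic loess normalization, with 16 added before log2, without dim probe sets, with no eBayes trend, and with array weights, a replicate block, the methods' t-test, the mean of a gene's probe sets, other thresholds, leaving out each array, and arrays centred on their medians, the last chosen after seeing the data. Medians of the other lists and of the markers were recomputed only with both normalizations, the offset, the centring and each Dox array left out. Single genes of those lists and the split by bacterial counterpart were recomputed only with arrays left out. The spread within groups and the medians by array were not recomputed. Plots used Python 3.11.15 with matplotlib 3.10.9.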

Additional observations from a re-analysis of the deposited data

How the results depend on the processing

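With 3 arrays per group, no member was called by limma under any alternative or threshold tried, nor by the methods' t-test. The count of members lower in Dox at an unadjusted p of at most 0.05, 5 as reported, was 1 with arrays centred on their medians, 3 with dim probe sets left out, 2 without an intensity trend, 9 with array weights, 3 by the methods' t-test, and 1 to 16 when 1 array was left out. Over all 23999 probe sets that count was 1421 as reported, 701 with arrays centred, 1133 without a trend and 2500 with array weights. It was 1041 by the methods' t-test, 599 to 2558 when 1 array was left out, and 1221 of 17069 with dim probe sets left out. The count of members higher, 4 as reported, was 9 with arrays centred, 0 without a trend, and 1 to 6 when 1 array was left out. Over all probe sets the higher count was 869 as reported, 1866 with arrays centred and 644 without a trend. It was 483 to 1328 when 1 array was left out. With the replicate block the counts of members were 4 and 2, and those of all probe sets 1447 and 866. The median log2 difference of the members was -0.22 with that block. That median was 0.01 with arrays centred and -0.35 to -0.03 when 1 array was left out. The cause of these shifts was not tested.

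None of the 16 members named for their p changed sign under any alternative, nor did TSFM, GFM1, FARS2 or TFB1M, but sizes moved by over 1.5 times. With arrays centred, log2 differences were -0.19 for MRPL44, -0.30 for MRPS9, -0.31 for MRPL30, -0.40 for MRPS15, -0.25 for MRPS28, 0.48 for MRPL17, 0.64 for MRPL35, 0.59 for MRPS21, 0.55 for MRPS24, -0.41 for TSFM, -0.10 for GFM1, -0.08 for FARS2 and -0.18 for TFB1M. MRPL35 was 0.14 as the mean of its probe sets, MRPL17 was 0.15 after quantile normalization and array weights gave -0.58 for MRPS17, -0.18 for FARS2 and -0.16 for TFB1M. After quantile and cyclic loess normalization GFM1 was -0.18 and -0.16 and TFB1M -0.25 and -0.24, and FARS2 was -0.20 after cyclic loess. The sign did change under some alternatives for MRPL52, MRPL33, TUFM, EARS2, IARS2 and VARS2. MRPL52 was -0.08 after quantile and -0.07 after cyclic loess normalization, -0.44 as the mean of its probe sets, and -0.12 to 0.19 when 1 array was left out. MRPL33 was 0.23 with arrays centred, 0.03 with array weights, 0.61 as the mean of its probe sets, and -0.09 to 0.13 when 1 array was left out. TUFM was 0.18 centred, and EARS2 was 0.12 after either normalization and 0.13 centred. When 1 array was left out, TUFM ranged from -0.21 to 0.13, EARS2 from -0.28 to 0.11, IARS2 from -0.52 to 0.04 and VARS2 from -0.06 to 0.31. The sign turned without Dox 3 for IARS2 and EARS2, without PBS 2 for TUFM and EARS2, and without PBS 1 for VARS2.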
